A study of Mus musculus with 6 samples.

Results

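Kinesins are motor proteins that walk along microtubules or take them apart. The family was taken as every protein-coding gene whose name begins with Kif followed by a digit or the letter c, which gave 42 of the 45706 genes in the table. A total of 38 had a mean of at least 10 over the 6 hearts and are reported: 13 mitotic kinesins, 14 transport kinesins and 11 others. The rule uses no difference between the groups, but the division into classes was drawn up with earlier results of these data known, and Kif2a, which also acts in the spindle, was counted among the others. The others are genes of cilia, Hedgehog signalling and microtubule regulation, together with Kif1bp, which encodes a kinesin-binding protein and no motor. The genes below the minimum were Kif2b, listed at 0 in every heart, Kif12 (0 to 3), Kif19a (0 to 4) and Kif17 (4 to 11).

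The hearts were embryonic and came from C57BL6/J mice, at an embryonic day that the labels do not state. All 6 carried loxP-flanked alleles on both copies of Rbpms and Rbpms2, which encode RNA-binding proteins. The 3 controls were littermates with no Cre in their genotype label, and the 3 knockouts also carried aMyHC Cre, a recombinase placed under the alpha-myosin heavy chain promoter, which works in cardiomyocytes. The comparison therefore covers the transgene together with the deletion, and cells that do not use that promoter keep both genes. Poly(A) RNA was sequenced, and the deposited value is a number of reads per gene divided by a factor per heart and rounded. Totals on that scale were 17861435 to 18439201 per heart, and the spacing of the low values gave estimated depths of 12959798 to 25833528 reads. Values per heart are listed throughout in the order of replicates 1, 2 and 3. Rbpms was at 6998, 3868 and 7656 in control hearts against 1134, 1117 and 852 in knockout hearts. Rbpms2 was at 1711, 1362 and 1998 in control hearts against 879, 1003 and 911 in knockout hearts. Both targeted genes were lower in every knockout than in every control. Markers of cardiomyocytes such as Ttn and Tnnt2 were abundant in all 6 hearts, with a summed value of 628704 to 672359 over 7 genes in control hearts and of 575219 to 615628 in knockout hearts.

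A kinesin couples the hydrolysis of ATP in its motor domain to steps along a microtubule or to the loss of tubulin from its end. Mitotic kinesins build the spindle, move chromosomes and organise the midzone at which a dividing cell is cut, and their transcripts are made mainly by cells in late S, G2 and M phase. Transport kinesins carry vesicles, endosomes, mitochondria and RNA, and are used by dividing and resting cells alike. Cardiomyocytes of the embryo still divide, so that an embryonic heart holds both classes of transcript. Genes of G2 and M phase are known to be controlled through the cell cycle genes homology region (CHR), a short promoter motif bound by MuvB complexes, often with CCAAT boxes, bound by NF-Y, upstream of it.

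The promoters of the mitotic kinesins are shown first because this class moved together. RefSeq (GRCm38.p6) gave windows of 300 bases, from 250 before to 50 after a transcription start, for 30 of the 38 genes. No window was in that table for Kif20a, Kif5a, Kif5b, Kif13b, Kif1bp, Kif21b, Kifc2 and Kifc3. The CHR motif was searched as TTTGAA and the CCAAT box as CCAAT, each on both strands, and in the kinesin windows no match of 1 motif overlapped a match of the other. The motif TTTGAA was found in the windows of 11 of 12 mitotic kinesins. It was in 1 of 11 windows (9 genes) of the transport kinesins, in 2 of 11 windows (9 genes) of the others and in 17.9% of all 32851 windows. Within 60 bases before to 25 bases after the start, it lay in 8 of 12 mitotic windows and in 4.43% of all windows. A CCAAT box was in 8 of 12 mitotic windows and in 37.4% of all windows, and both motifs were in 8 of 12 and in 6.95%. Of 21 windows (19 genes) of the spindle and cytokinesis partners listed further on, 15 held TTTGAA and 14 held both. These are matches of letters, and binding was not measured. Kifc1 and Kifc5b share a run of promoter sequence around a CCAAT box, so their windows are not independent.

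The stretches below run 5′ to 3′ from 60 bases before to 25 bases after the start, in GRCm38.p6, with TTTGAA or its reverse complement and CCAAT or its reverse complement in capitals. They are the 8 mitotic kinesins with the CHR motif near the start.
Kif11, chr19:37376322-37376406, plus strand: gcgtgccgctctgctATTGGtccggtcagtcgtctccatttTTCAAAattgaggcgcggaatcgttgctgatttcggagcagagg
Kif15, chr9:122951021-122951105, plus strand: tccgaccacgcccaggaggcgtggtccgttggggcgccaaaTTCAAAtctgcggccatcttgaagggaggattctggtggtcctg
Kif22, chr7:127042396-127042480, minus strand: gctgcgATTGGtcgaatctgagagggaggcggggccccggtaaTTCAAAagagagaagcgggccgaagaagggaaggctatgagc
Kif18b, chr11:102925100-102925184, minus strand: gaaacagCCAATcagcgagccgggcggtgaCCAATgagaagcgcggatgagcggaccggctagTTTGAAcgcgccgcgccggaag
Kifc1, chr17:33890609-33890693, minus strand: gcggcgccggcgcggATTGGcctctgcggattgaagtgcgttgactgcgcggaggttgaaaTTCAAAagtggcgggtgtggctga
Kif23, chr9:61946775-61946859, minus strand: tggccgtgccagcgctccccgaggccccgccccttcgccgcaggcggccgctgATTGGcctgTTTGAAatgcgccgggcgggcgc
Kif20b, chr19:34922298-34922382, plus strand: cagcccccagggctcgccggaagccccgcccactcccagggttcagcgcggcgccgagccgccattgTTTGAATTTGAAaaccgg
Kif4, chrX:100626005-100626089, plus strand: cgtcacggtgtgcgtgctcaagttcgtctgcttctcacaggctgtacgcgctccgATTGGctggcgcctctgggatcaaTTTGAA
In Kif11, Kif15 and Kif22 the motif begins 19, 19 and 17 bases before the start, on the minus strand of the gene. In Kifc1, Kif23 and Kif18b it begins at base 2, 3 and 4 of the transcript, and Kif20b has 2 copies, at bases 8 and 14. In Kif4 it begins at base 20, with a CCAAT box 5 bases before the start, and this RefSeq start lies 328 bases inside the gene in GENCODE. The motif of Kifc5b, at base 30, lies just beyond the stretch. The motifs of Kif2c and Kif14 begin 103 and 228 bases before a RefSeq start that lies 3867 and 1505 bases inside the gene as GENCODE draws it.

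For contrast, Kif18a is the mitotic kinesin with no TTTGAA in its window, and Kif1a and Kif16b are the transport kinesins that passed the test.
Kif18a, chr2:109280678-109280762, plus strand: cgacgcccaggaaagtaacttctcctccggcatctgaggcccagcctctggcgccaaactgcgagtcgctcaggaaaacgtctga
Kif1a, chr1:93101850-93101934, minus strand: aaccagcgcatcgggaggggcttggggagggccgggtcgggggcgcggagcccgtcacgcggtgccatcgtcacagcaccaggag
Kif1a, chr1:93082456-93082540, minus strand: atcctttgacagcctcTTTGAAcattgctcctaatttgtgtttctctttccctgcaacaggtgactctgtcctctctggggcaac
Kif16b, chr2:142901440-142901524, minus strand: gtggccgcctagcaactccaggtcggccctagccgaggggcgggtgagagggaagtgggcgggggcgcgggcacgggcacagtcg
The outer start of Kif1a and the start of Kif16b hold neither motif in this stretch, nor in the whole window. The second RefSeq start of Kif1a, 19471 bases inside the gene, has TTTGAA 44 bases before it.

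**Figure D1:**
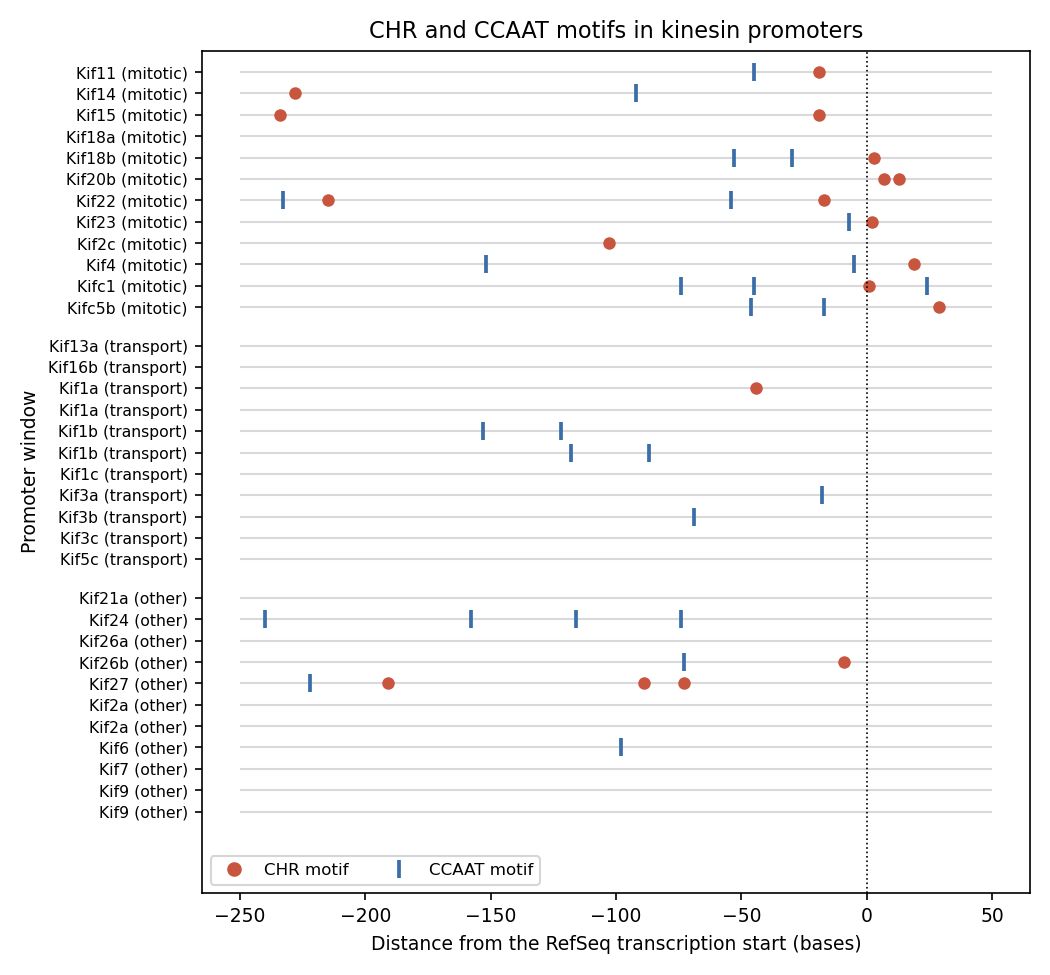
Each row is a RefSeq promoter window of a kinesin gene with a mean of at least 10, and the x axis is the distance in bases from the transcription start. Red points mark the first base of TTTGAA on either strand and blue ticks that of CCAAT; red points lie in the windows of 11 of 12 mitotic kinesins and gather near the start in 8 of them.

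Mitotic kinesins were lower in knockout hearts as a class. All 13 passed an adjusted p of 0.05 in limma and were lower, where 8.56% of all genes tested were called lower. The median log2 fold change of the 13 was -0.64, with a range of -0.87 to -0.41, beside a median of 0.002 over all 15556 genes tested. In all 13 every knockout lay below every control, which held for 17.9% of all genes tested. Values were 25.1% lower in the gene that fell least, Kifc5b, and 45.5% lower in the gene that fell most, Kif14. The p-values measure the spread between these hearts, each labelled as a separate sample. In whole hearts, fewer dividing cells and less of each transcript per dividing cell cannot be told apart.

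**Figure D2:**
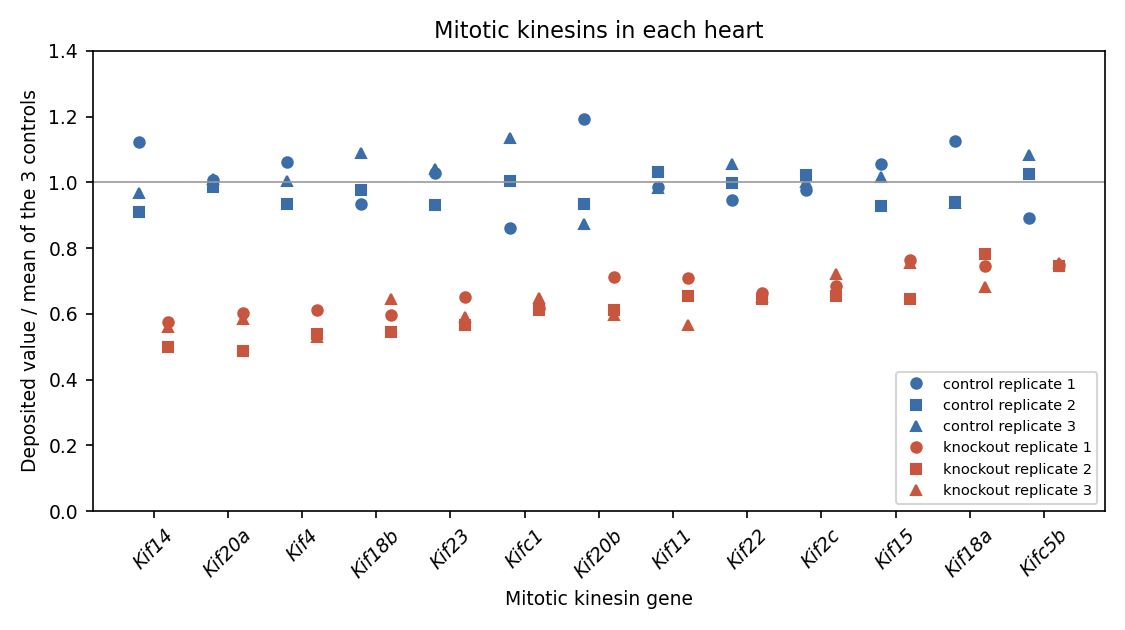
The y axis is the deposited value of each heart divided by the mean of the 3 controls, for the 13 mitotic kinesins on the x axis; blue symbols are controls, red symbols knockouts, and the shape gives the replicate. In every gene the 3 red symbols lie below the 3 blue ones, from 45.5% lower on average in Kif14 to 25.1% in Kifc5b.

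Motors that set up the spindle fell. Kif11 (chromosome 19, 37376403 to 37421859, plus strand; mm10), the bipolar kinesin-5 that pushes the spindle poles apart, was at 2558, 2684 and 2555 in control hearts against 1842, 1697 and 1469 in knockout hearts. Its mean went from 2599 ± 73.6 to 1669 ± 188.0 (SD, n = 3 each), a change of -0.64 on the log2 scale (SE 0.08) with a limma adjusted p of 0.0013. The knockouts differed among themselves more than the controls did, and the groups did not overlap. Kif15, a kinesin-12 that helps to keep the spindle bipolar, was at 658, 579 and 633 in control hearts against 476, 403 and 471 in knockout hearts, and fell by 0.47 on the log2 scale (SE 0.09). Kifc1, a kinesin-14 that walks to the minus end and focuses spindle poles, was at 883, 1029 and 1164 in control hearts against 632, 627 and 665 in knockout hearts, and fell by 0.67 (SE 0.10). Its controls spread widely while the 3 knockouts were nearly alike. Kifc5b, a close copy of Kifc1, was at 304, 350 and 370 against 255, 254 and 258 and fell by 0.41 (SE 0.10, limma adjusted p = 0.0222). Control replicate 1 was the lowest control in both. Reads may be shared: 25.4% of the 75-base stretches of the Kifc1 transcripts also occur in those of Kifc5b, so their values are not independent. The call for Kifc5b was lost without control replicate 2 (limma adjusted p = 0.0747), control replicate 3 (0.0814), knockout replicate 2 (0.0764) or knockout replicate 3 (0.0525), and over all alternatives the adjusted p ran from 0.0139 to 0.646.

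Motors on chromosomes and microtubule tips fell as well. Kif4 (chromosome X, 100625737 to 100727214, plus strand), a chromokinesin that binds chromosome arms and later limits the length of midzone microtubules with PRC1, was at 1248, 1098 and 1182 in control hearts against 721, 633 and 622 in knockout hearts. Its change was -0.84 on the log2 scale (SE 0.08) with a limma adjusted p of 0.000512. Kif4 is X-linked, and by Xist and Y-linked transcripts control replicates 1 and 3 and knockout replicate 2 were female and the other 3 hearts male; the difference was -0.94 on the log2(value + 1) scale among females and -0.71 among males. Of its 75-base stretches 13.8% overlap Pdzd11 on the opposite strand. Kif22 (chromosome 7, 127027729 to 127042471, minus strand), the other chromokinesin, which pushes chromosome arms away from the poles, was at 1245, 1312 and 1389 in control hearts against 874, 848 and 856 in knockout hearts. It fell by 0.61 (SE 0.07, limma adjusted p = 0.000759), with the knockouts close together. Kif2c, which depolymerises microtubules at kinetochores and so corrects faulty attachments, was at 874, 914 and 895 against 612, 586 and 644 and fell by 0.54 (SE 0.07). Replicates of both groups lay close together for Kif2c.

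The kinesin-8 genes differed in the size of their fall, a difference that was not tested. Kif18b, which trims astral microtubules at their tips, was at 626, 653 and 730 in control hearts against 400, 364 and 432 in knockout hearts and fell by 0.75 (SE 0.10). Kif18a, which damps the movements of chromosomes at the metaphase plate, was at 323, 270 and 269 against 214, 225 and 196 and fell by 0.44 (SE 0.11, limma adjusted p = 0.0266). Control replicate 1 stood above the other controls for Kif18a. The call was lost without control replicate 1 (limma adjusted p = 0.0729) and without knockout replicate 1 (0.0514), 2 (0.0548) or 3 (0.0839). It was also lost with no filter on low values (0.0509), which left 12 mitotic calls, and with sex as a term, with a range of 0.0204 to 0.599 over all alternatives.

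Motors of the midzone and of cytokinesis, the final cut between daughter cells, fell by 0.63 to 0.87 on the log2 scale. Kif14 (chromosome 1, 136466343 to 136531511, plus strand), which binds PRC1 and citron kinase at the midbody, was at 441, 358 and 380 in control hearts against 226, 196 and 220 in knockout hearts. Its change of -0.87 on the log2 scale (SE 0.11) with a limma adjusted p of 0.00123 was the largest fall of any kinesin by its estimate, within the SE of that of Kif20a. Kif20a, which brings the Aurora B kinase complex to the midzone, was at 1834, 1796 and 1841 in control hearts against 1101, 890 and 1064 in knockout hearts, and 23.3% of the 75-base stretches of its transcripts overlap the gene Cdc23 on the opposite strand. Reads of the 2 genes cannot be told apart there if counting ignored strand, and the strand setting is unknown here. Kif23 (chromosome 9, 61915905 to 61946774, minus strand), which forms the centralspindlin complex with RACGAP1, was at 1421, 1286 and 1438 in control hearts against 898, 783 and 815 in knockout hearts and fell by 0.73 (SE 0.08, limma adjusted p = 0.000672). Kif20b, which acts late in cytokinesis, was at 799, 627 and 585 against 478, 410 and 400 and fell by 0.63 (SE 0.12). Its control replicate 1 was high, and the lowest control still lay above the highest knockout.

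Each sex holds a single heart of 1 group, so that differences within a sex are values with no test. Females alone (control replicates 1 and 3 and knockout replicate 2) gave differences of -1.06 to -0.39 on the log2(value + 1) scale over the 13 genes, and males alone (control replicate 2 and knockout replicates 1 and 3) gave -0.73 to -0.29. With embryo sex as a term, 12 of 13 passed, all but Kif18a (limma adjusted p = 0.0599). When the test asked for a change beyond 1.2-fold, 8 of the 13 passed: Kif4, Kif11, Kif14, Kif18b, Kif20a, Kif22, Kif23 and Kifc1. Of all 15556 genes 418 passed that test, 207 of them lower.

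Transcripts of the proteins with which these motors work showed the same direction. Of 22 genes of spindle and cytokinesis partners, 21 fell and 0 rose, where 8.56% of all genes tested were called lower and 8.61% higher. Their median log2 fold change was -0.61, and Numa1 was the 1 that did not pass (-0.19, limma adjusted p = 0.0711). Prc1, which bundles midzone microtubules and binds Kif4 and Kif14 protein, was at 3566, 3240 and 3641 in control hearts against 2086, 1884 and 1831 in knockout hearts and fell by 0.85 (SE 0.07). Racgap1, the partner of Kif23, fell by 0.71 (SE 0.07) and Bub1b, a spindle checkpoint kinase, by 0.85 (SE 0.08). Cenpe, the kinetochore motor that is itself a kinesin but carries another name, was at 1035, 1117 and 879 against 747, 732 and 757 and fell by 0.43 (SE 0.09, limma adjusted p = 0.0111). The proliferation marker Mki67 fell by 0.50 (SE 0.08) and the S to M phase enzyme Top2a by 0.66 (SE 0.07). When the test asked for a change beyond 1.2-fold, 13 of these 22 passed, beside 418 of all 15556 genes.

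Markers of other cells moved in the same hearts, where 8.61% of all genes were called higher and 8.56% lower. Fibroblast markers passed as higher in 4 of 7 genes (summed value 89796 to 104446 in control hearts and 116921 to 147159 in knockout hearts), macrophage markers in 4 of 6 (1062 to 1179 and 1517 to 2279), endothelial markers in 3 of 6 (16116 to 16396 and 17809 to 19578), epicardial markers in 0 of 5 (3483 to 3799 and 3893 to 4403) and mural markers in 0 of 4 (8980 to 9278 and 9819 to 10439). In the epicardial list 1 gene had an unadjusted p under 0.05 in limma and 2 passed without control replicate 3; in the mural list 3 had such a p and 1 passed without knockout replicate 1. Cardiomyocyte markers passed as lower in 1 of 7, Actn2, a call lost on leaving out any heart other than control replicate 1. In that list 3 had an unadjusted p under 0.05 in limma and 5 were negative, with a median log2 fold change of -0.16. The summed value of the 7 was 628704 to 672359 in control hearts and 575219 to 615628 in knockout hearts. Erythroid markers, from red cell precursors in the blood of the heart, had a median log2 fold change of -0.57, with 0 of 6 past the threshold, 5 at an unadjusted p under 0.05 in limma and all 6 negative; their summed value was 37800 to 65940 in control hearts and 30192 to 37646 in knockout hearts. The erythroid count was 3 without control replicate 1 or knockout replicate 3. No marker of these lists was at 0 in all hearts. The part of these cell types in the change of the mitotic kinesins was not tested.

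Transport kinesins showed no common direction. Of 14 tested, 1 rose, Kif1a, and 1 fell, Kif16b, where 8.61% of all genes were called higher and 17.2% were called in either direction. Their median log2 fold change was 0.10, 8 were positive and 6 negative, and in 10 of the 14 the groups overlapped. Every knockout lay above every control in 2 (17.5% of all genes tested) and below in 2 (17.9%).

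**Figure D3:**
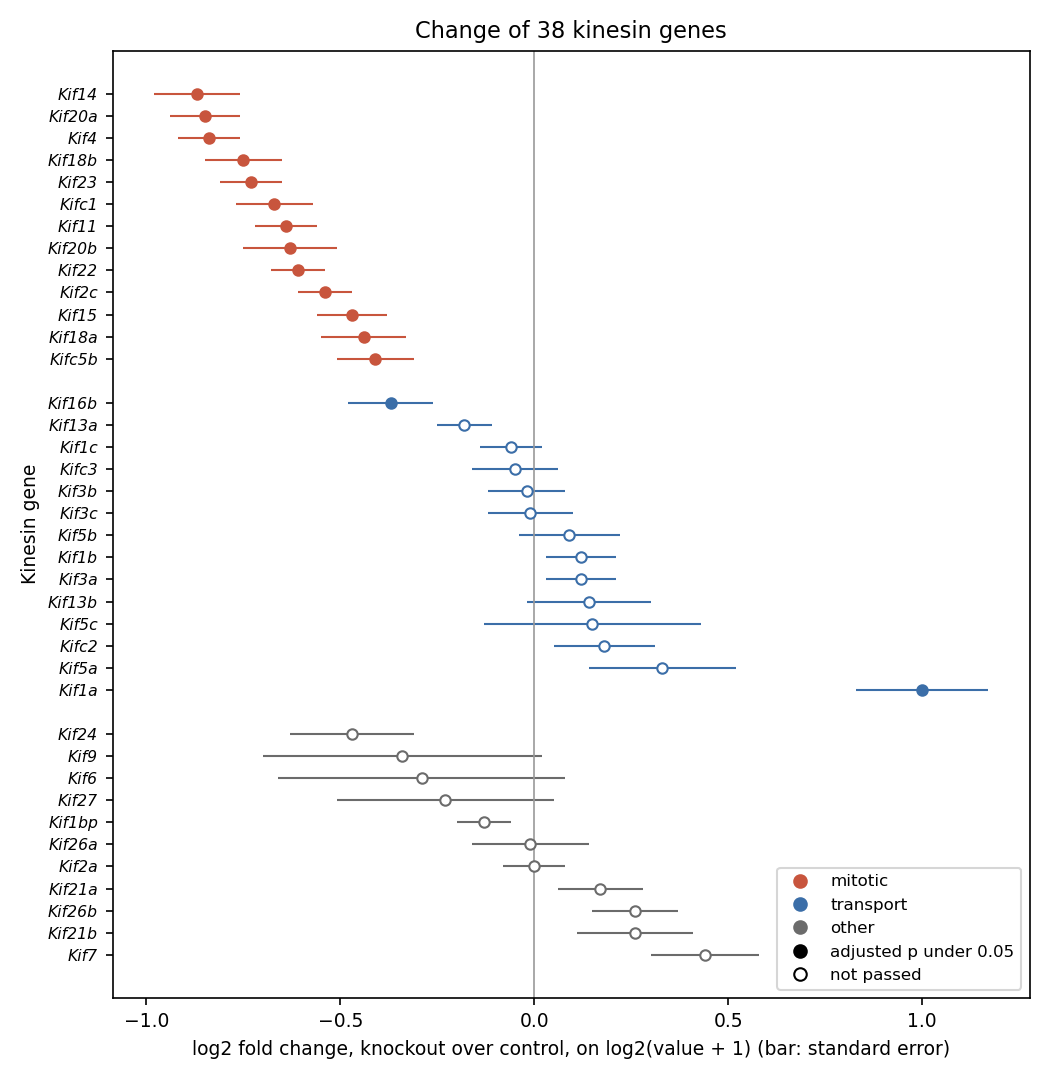
Points are log2 fold changes of knockouts over controls on the log2(value + 1) scale, with bars of 1 standard error, for 38 kinesin genes ordered within mitotic, transport and other classes; filled points passed an adjusted p of 0.05. The 13 mitotic genes lie between -0.87 and -0.41. The transport and other genes lie on both sides of 0, from Kif24 at -0.47, within the mitotic range, to Kif1a at 1.0.

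Kif1a (chromosome 1, 93015464 to 93101951, minus strand), the kinesin-3 that carries precursors of synaptic vesicles in neurons, was the 1 kinesin that rose. It was at 621, 775 and 502 in control hearts against 982, 1449 and 1357 in knockout hearts. Every knockout lay above every control, with knockout replicate 1 the lowest of the 3. The mean went from 633 ± 136.9 to 1263 ± 247.4 (SD, n = 3 each), a change of 1.0 on the log2 scale (SE 0.17) with a limma adjusted p of 0.00413, and the call held under all 16 alternatives, with a log2 fold change of 0.84 to 1.17. The difference was 1.37 among females and 0.57 among males; whether the sexes differ was not tested. Its relatives in the Kif1 group did not pass. Kif1b, a carrier of mitochondria and synaptic vesicle precursors, was at 3914, 3841 and 3348 against 4427, 3988 and 3626 (log2 fold change 0.12, SE 0.09), and Kif1c at 5916, 6626 and 6713 against 5828, 6011 and 6627 (-0.06, SE 0.08). Per kilobase of exon, Kif1a made up 6.04, 6.85 and 4.61% of the summed level of Kif1a, Kif1b and Kif1c in control hearts and 9.09, 12.9 and 11.5% in knockout hearts. Kif1a was the least abundant of the 3 per kilobase in both groups, at 135 in knockout hearts beside 228 for Kif1b and 846 for Kif1c.

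No neural marker passed the test beside Kif1a. Of 6 on the list, 4 were tested and 0 passed in limma or limma-voom, with 1, Elavl4, at an unadjusted p under 0.05. The neuronal gene Elavl4 was at 27, 35 and 41 in control hearts against 24, 23 and 14 in knockout hearts, and the neuronal gene Stmn2 was at 58, 39 and 34 against 57, 39 and 29. The glial gene Sox10 was at 11, 5 and 1 against 4, 29 and 12, and the neuronal gene Tubb3 was at 12 or less in every heart. The part of neural cells in the rise of Kif1a was not tested. Among transcripts of proteins that bind microtubules, Mapt, which encodes tau, was at 33, 37 and 20 in control hearts against 62, 104 and 74 in knockout hearts and rose by 1.4 (SE 0.27, limma adjusted p = 0.00747). Map7, which recruits kinesin-1 to microtubules, was at 254, 231 and 253 against 403, 479 and 413 and rose by 0.81 (SE 0.10, limma adjusted p = 0.00113).

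**Figure D4:**
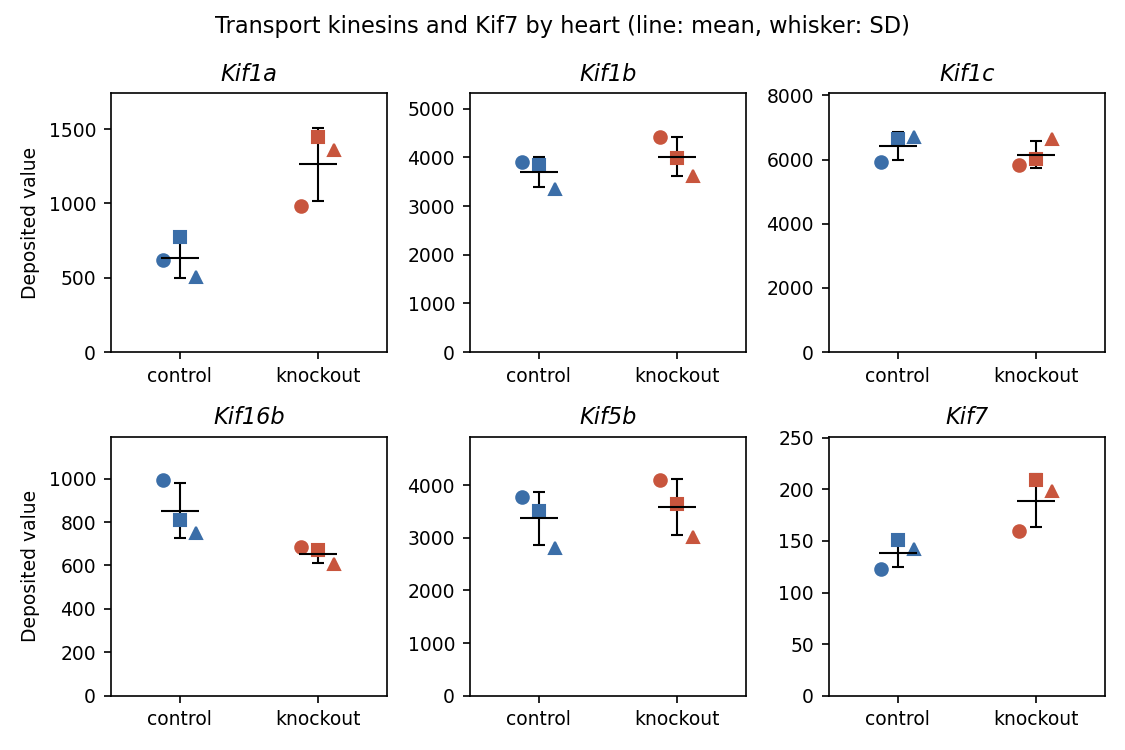
Panels give the deposited value on the y axis, from 0, for Kif1a, Kif1b, Kif1c, Kif16b, Kif5b and Kif7 in each control (blue) and knockout (red) heart, with the mean as a line and the SD as a whisker; shapes mark replicates 1 (circle), 2 (square) and 3 (triangle). Kif1a lies between 502 and 775 in control hearts and between 982 and 1449 in knockout hearts, while Kif1b, Kif1c and Kif5b overlap between groups.

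Kif16b (chromosome 2, 142617474 to 142901531, minus strand), a kinesin-3 that moves early endosomes, was at 993, 810 and 751 in control hearts against 685, 669 and 606 in knockout hearts. Control replicate 1 was the highest heart, and the groups did not overlap. Its change was -0.37 on the log2 scale (SE 0.11) with a limma adjusted p of 0.0385. The call was close to the threshold: it was lost without control replicate 1 (limma adjusted p = 0.0799), control replicate 2 (0.0735) or knockout replicate 1 (0.0515), 2 (0.0964) or 3 (0.112), with sex as a term (0.0823), and with no filter on low values (0.0844), and the range over all alternatives was 0.0083 to 0.913. Kif13a, a kinesin-3 of recycling endosomes, was at 3336, 3233 and 3038 against 2668, 3010 and 2833 (log2 fold change -0.18, SE 0.07, limma adjusted p = 0.11), with every knockout below every control. Its relative Kif13b was at 87 to 128 in control hearts and 112 to 127 in knockout hearts.

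Kinesin-1, the founding transport motor, was present almost entirely as Kif5b. Per kilobase, Kif5b made up 97.4, 97.3 and 97.6% of the summed level of Kif5a, Kif5b and Kif5c in control hearts and 97.2, 97.6 and 96.7% in knockout hearts. Kif5b was at 3783, 3514 and 2810 in control hearts against 4099, 3639 and 3025 in knockout hearts, a log2 fold change of 0.09 (SE 0.13). Replicate 3 was the lowest of both groups. The neuron-enriched heavy chains were near the low end of the scale, Kif5a at 36 to 39 in control hearts and 42 to 55 in knockout hearts and Kif5c at 26 to 52 and 34 to 50. Kinesin-2, the motor of transport inside cilia, gave no call: Kif3a was at 612, 550 and 511 against 660, 583 and 579 and Kif3b at 717, 757 and 603 against 716, 710 and 612. Kif3c had a mean of 288 ± 7.94 in control hearts and of 288 ± 40.6 in knockout hearts (SD, n = 3 each), and 38.9% of the 75-base stretches of its transcripts occur in other genes, chiefly on the opposite strand. The kinesin-14 genes Kifc2 (198 to 244 and 226 to 283) and Kifc3 (687 to 921 and 752 to 851) overlapped between groups.

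The 11 other genes gave 0 calls in limma and in limma-voom, where limma called 17.2% of all genes in either direction. In limma 3 had an unadjusted p under 0.05: Kif7, Kif24 and Kif26b. Every knockout lay below every control in 2, Kif24 and Kif1bp (17.9% of all genes tested), and above in 1, Kif7 (17.5%). Kif7, the kinesin of the ciliary tip that acts in Hedgehog signalling, was at 123, 151 and 142 in control hearts against 160, 209 and 198 in knockout hearts, with no overlap; 14.4% of its 75-base stretches overlap 9330171B17Rik on the opposite strand. Its log2 fold change of 0.44 (SE 0.14) just missed the threshold (limma adjusted p = 0.0584), and it passed without knockout replicate 1 (0.0291), with equal totals (0.0435) and with the replicate number as a block (0.0285). Kif24, which restrains the assembly of cilia, was at 101, 95 and 88 against 80, 67 and 59 (-0.47, SE 0.16, limma adjusted p = 0.078), also with no overlap, and passed with quantile normalization (0.0482). Kif26b, an atypical kinesin, was at 1907, 2304 and 1706 against 2084, 2434 and 2540 (0.26, SE 0.11, limma adjusted p = 0.143) and passed without control replicate 2 (0.0446). Kif2a, the relative of Kif2c that depolymerises microtubules in resting cells and neurons as well as in the spindle, was at 1327, 1187 and 1130 in control hearts against 1229, 1144 and 1259 in knockout hearts. Its means of 1215 ± 101.4 and 1211 ± 59.7 (SD, n = 3 each) differed by less than the spread between hearts. Kif1bp was at 942, 922 and 929 against 868, 840 and 852 (-0.13, SE 0.07, limma adjusted p = 0.222). Kif26a, Kif21a and Kif21b overlapped between groups, and Kif6, Kif9 and Kif27, known from motile cilia, were at 29 or less in every heart.

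Levels per kilobase set the size of each class. The 13 mitotic genes summed to 2392, 2396 and 2503 per kilobase of exon in control hearts and to 1585, 1445 and 1507 in knockout hearts, a mean of 2430 ± 62.6 against 1513 ± 70.1 (SD, n = 3 each). The 14 transport genes summed to 2622 ± 100.5 and 2647 ± 28.9 and the 11 others to 724 ± 22.3 and 746 ± 30.2. The mitotic sums of the groups lay far apart relative to their SDs, whereas the transport and other sums overlapped. Mitotic transcripts made up 42.1 ± 1.46% of the sum of all classes in control hearts and 30.8 ± 1.15% in knockout hearts. That sum includes Kif1bp, which encodes no motor, at 190 per kilobase in control hearts and 174 in knockout hearts. It leaves out the kinesin Cenpe, at 117 and 86.5. In control hearts the highest means per kilobase were those of Kif1c at 882, Kif5b at 422, Kif20a at 420.4, Kif13a at 396, Kif11 at 348 and Kifc1 at 300.3. In knockout hearts they were those of Kif1c at 846, Kif5b at 449.5, Kif13a at 350.5, Kif20a at 235, Kif1b at 228 and Kif11 at 224. The order of the groups thus differed, with the mitotic Kif20a beside Kif5b in control hearts and below Kif13a in knockout hearts. Among the others, over all 6 hearts, Kif2a was at 190, with Kif1bp at 182 and Kif26b at 147.

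**Figure D5:**
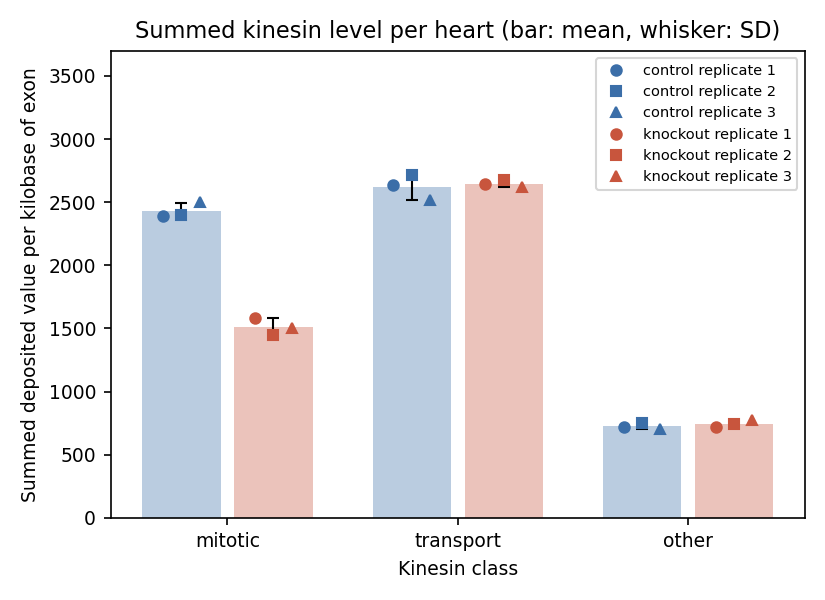
Bars are mean summed values per kilobase of exon, from 0, for mitotic, transport and other kinesins in 3 control (blue) and 3 knockout (red) hearts, with the SD as a whisker and a symbol per heart. The mitotic sum is 2392 to 2503 in control hearts and 1445 to 1585 in knockout hearts; the transport and other sums overlap between groups.

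Genes that serve the motors were called at a share near that of all genes or above it. Of 17 tested kinesin light chains, adaptors and cargo linkers, 3 fell and 0 rose, beside 17.2% of all genes called in either direction, with a median log2 fold change of -0.09; this share is near the background and is no result about the list. Fez2, a kinesin-1 adaptor, was at 1090, 973 and 1115 against 776, 764 and 773 and fell by 0.46 (SE 0.08). Arl8b, which links lysosomes to kinesins, fell by 0.25 (SE 0.07) and Trak1, an adaptor for mitochondria, by 0.25 (SE 0.08, limma adjusted p = 0.0497). The light chains Klc1, Klc2, Klc3 and Klc4 did not pass, nor did Kifap3, the accessory subunit of kinesin-2. The count of 3 was 5 without control replicate 1, 1 without knockout replicate 1 or 2, and 7 with the replicate number as a block.

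Dynein and dynactin, which form the motor for transport toward the minus end, were also called at a share near that background. Of 27 genes 4 rose and 1 fell, beside 8.61% of all genes called higher and 8.56% called lower, with a median of 0.03. Dync1li1, a light intermediate chain that binds cargo adaptors, was at 2193, 2373 and 2106 against 2895, 2855 and 2933 and rose by 0.38 (SE 0.07). The dynactin subunit gene Dctn6 was at 839, 1199 and 839 against 1417, 1564 and 1330 and rose by 0.60 (SE 0.13). Its difference was 0.9 among females and 0.2 among males, with no test between the sexes. Dctn6 lies on chromosome 8 (34090420 to 34108796), which also carries the targeted gene Rbpms. Nde1, a dynein regulator that also acts in mitosis, fell by 0.28 (SE 0.07). The count of 5 was 1 without control replicate 3 or knockout replicate 2 and 3 without knockout replicate 1. Of 23 tubulins and microtubule-binding proteins 3 rose and 6 fell, beside the same 8.61% and 8.56% of all genes, with a median of 0.02. Beside Map7 and Mapt, Stmn1, which destabilises microtubules, fell by 0.46 (SE 0.07) and Mapre2, which binds growing microtubule ends, by 0.44 (SE 0.07). The other called genes were tubulin genes: Tubb5 (-0.36), Tuba1b (-0.42), Tubb4b (-0.25) and Tubg1 (-0.36) fell, and Tubb2a (0.32) rose. The count of 9 was 5 without control replicate 2, knockout replicate 2 or knockout replicate 3 and 4 without control replicate 3.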

How the data were processed

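Per the labels, poly(A) RNA of 6 whole hearts was sequenced from stranded libraries. The submitters' processing notes name build mm10, featureCounts 1.5.0, STAR 2.4.2a, Trimmomatic, DESeq and DESeq2; their roles and whether counting used strand are not given in the sources used here. The deposited values are treated as a score: read numbers scaled by the authors with a factor for each heart and then rounded, as read from the values. The factor was found from the spacing of values up to 150; since rounding merges reads where the step is under 1, no count test was run.

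The fit was limma 3.58.1 (R 4.3.3) with a variance trend on log2(value + 1), group as the only term, for genes with a mean of at least 10, with Benjamini-Hochberg adjustment over 15556 genes. Fold changes on this scale understate the change of low genes. The fit was tested on simulated data. Members, lists and tests were chosen with earlier results of these data known. All kinesins with a mean of at least 10 are reported, with values per heart for those past the threshold and for the 3 highest per kilobase in each class; some others were added after their values were seen. Lengths and coordinates came from GENCODE M21 (mm10), promoters from RefSeq (GRCm38.p6), where Python 3.11.15 was used. Alternatives were limma-voom on estimated reads, pseudocounts 0.1 and 10, no filter, a filter of 50 in 3 samples, quantile normalization, equal totals, the replicate block, a fold change of 1.2 and leaving out each heart; embryo sex as a term was chosen after seeing the data. No pair of replicates was alike within sampling noise. Some neural marker genes are not reported here.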

Additional observations from a re-analysis of the deposited data

How the results depend on the processing

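Of the 15 kinesins past the threshold, 8 mitotic genes and Kif1a kept their call and direction under all 16 alternatives. The 13 mitotic calls were 11 to 12 without each heart in turn and 8 against a fold change of 1.2. The 2 transport calls were 1 to 2 without each heart in turn and 1 with no filter, quantile normalization, equal totals, a fold change of 1.2 or sex as a term; the 1 lost was Kif16b. The 0 calls among the others were 0 to 1 without each heart in turn and 1 with quantile normalization, equal totals or the replicate block. Over all genes 2670 passed, 1755 with no filter, 418 against a fold change of 1.2 and 1319 to 2371 without each heart in turn.

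Of 23 kinesins that did not pass, 8 changed sign under some alternative, and the log2 fold changes of changed sign ran from -0.15 to 0.11. With quantile normalization Kif26a and Kif2a were at 0.01 each. With equal totals Kif26a was at 0.02, Kif2a at 0.03, Kif3b at 0.01 and Kif3c at 0.02, and with sex as a term Kif3c was at 0.05. Without each heart in turn Kif26a ran from -0.17 to 0.11, Kif2a from -0.05 to 0.06, Kif3b from -0.12 to 0.05, Kif3c from -0.12 to 0.07, Kif13b from -0.01 to 0.26, Kif5b from -0.03 to 0.21, Kif5c from -0.15 to 0.34 and Kifc3 from -0.18 to 0.03. The cause was not tested.

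Same-numbered hearts did not deviate together (correlations of -0.041, -0.372 and 0.049 for numbers 1 to 3). Each same-numbered pair joins a female and a male heart, so these correlations cannot decide whether the numbers pair the hearts. With the replicate block 3530 genes passed, beside 2670 without it, and all 13 mitotic and both transport calls remained. Among the context lists, the counts with no filter and beyond a 1.2-fold change were 1 and 0 (3 in the report) for light chains and adaptors, 4 and 0 (5) for dynein and dynactin, and 5 and 2 (9) for tubulins and microtubule-binding proteins. Beyond 1.2-fold, fibroblast, macrophage and endothelial markers gave 0, 2 and 1. With the replicate block epicardial, mural and erythroid markers gave 2, 3 and 4. Depth limits the genes below about 50, such as Kif5a, Kif5c, Kif6, Kif9 and Kif27.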
